A study of Oryctolagus cuniculus with 4 samples.

Results

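The genes described here are DCN, BGN, LUM and OGN, which encode decorin, biglycan, lumican and osteoglycin, small leucine-rich proteoglycans of the extracellular matrix. They were taken as the probes whose array annotation names a RefSeq transcript of these rabbit genes, which gave 17 of 43603 probes and 4 of the 1489 genes that could be named. DCN had 6 probes, BGN 2, LUM 4 and OGN 5, each printed at 1 spot per array. The ligamentum flavum, the elastic ligament between neighbouring vertebral arches, was taken from male rabbits aged 34 weeks, 16 weeks after an operation at 18 weeks of age, per the labels. At the intervertebral stress concentration (ISC) level, L3/4, the muscle over the segment had been resected, and L2/3 and L4/5 had been fused posterolaterally with instrumentation, so that the free segment lay between rigid ones. There were 4 groups with 1 single-colour Agilent array each, all on 1 slide: ISC tissue of L3/4, its L3/4 control, fused tissue of L2/3 and L4/5, and control tissue of these same segments, called the L2/3-L4/5 control. The labels do not say whether control rabbits had surgery or whether animals were pooled. With a single array per group no difference could be tested or given an error between animals, and precision is limited by this number.

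Small leucine-rich proteoglycans have a core protein of leucine-rich repeats that carries glycosaminoglycan chains. Decorin and biglycan carry chondroitin or dermatan sulphate, while lumican and osteoglycin can carry keratan sulphate. They bind collagen fibrils and affect fibril diameter and spacing, decorin and biglycan also bind TGF-beta, and soluble biglycan can signal through TLR2 and TLR4. In the RefSeq gene order of the assembly mOryCun1.1, LUM and DCN are neighbours, next to the family members KERA and EPYC, while OGN lies beside OMD and ASPN.

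All 68 spots of the 4 genes were well above background, so every gene was measured on every array. Values are log2 of the processed signal minus log2 of the array's 75th percentile, a scaled level, and ratios are differences of these levels between arrays. Levels of different probes are not read as amounts of different transcripts. They were used to choose a gene's brightest probe, to set a bound for bright features and to sum markers. Such a sum is weighted to its brightest probes. A gene is represented by its brightest probe unless its other probes are given. Of 50 probes printed at 5 spots each, 25 were well above background on all arrays, and these had a median SD between spots of 0.10 to 0.12 on the log2 scale. This gives an SD of 0.16 for a log2 ratio of single spots in both comparisons with a control. This is a technical spread within arrays.

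As a check of the tissue, COL1A2, a chain of the collagen I of ligament fibroblasts, was well above background on all 4 arrays. TNMD, the tenomodulin gene of tenocytes and ligament fibroblasts, was so on 3 arrays but not at the fused levels. Of 25 skeletal muscle markers 15 could be named. Their summed scaled signal, in multiples of the array's 75th percentile, was 28.6 at the ISC level, 28.2 in the L3/4 control, 15.0 at the fused levels and 873.4 in the L2/3-L4/5 control. For 7 named of 14 granulocyte and marrow markers the sum was 8.93, 13.7, 285.9 and 7.33 in that order of arrays, and for 2 named of 9 erythroid markers it was 433.5, 779.2, 1151 and 271.6. All 7 granulocyte and both erythroid markers were well above background on every array. Of the muscle markers 14, 11, 12 and 15 were so, in the same order of arrays. Other marker lists differed too. At the fused levels 4 of 4 adipocyte markers were at least 2-fold higher than in the L2/3-L4/5 control, beside 7.85% of all features. Against the L3/4 control 3 of 4 were, beside 11.2%, and in neither case was any 2-fold lower. At the ISC level 2 of 2 endothelial and 3 of 5 smooth muscle markers were at least 2-fold lower than in the L3/4 control. Of all features 10.5% were, and 0 of these markers were 2-fold higher. The part of these cell types in the differences below was not tested. In bulk tissue, fewer cells of a type and less RNA per cell cannot be told apart.

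**Figure D1:**
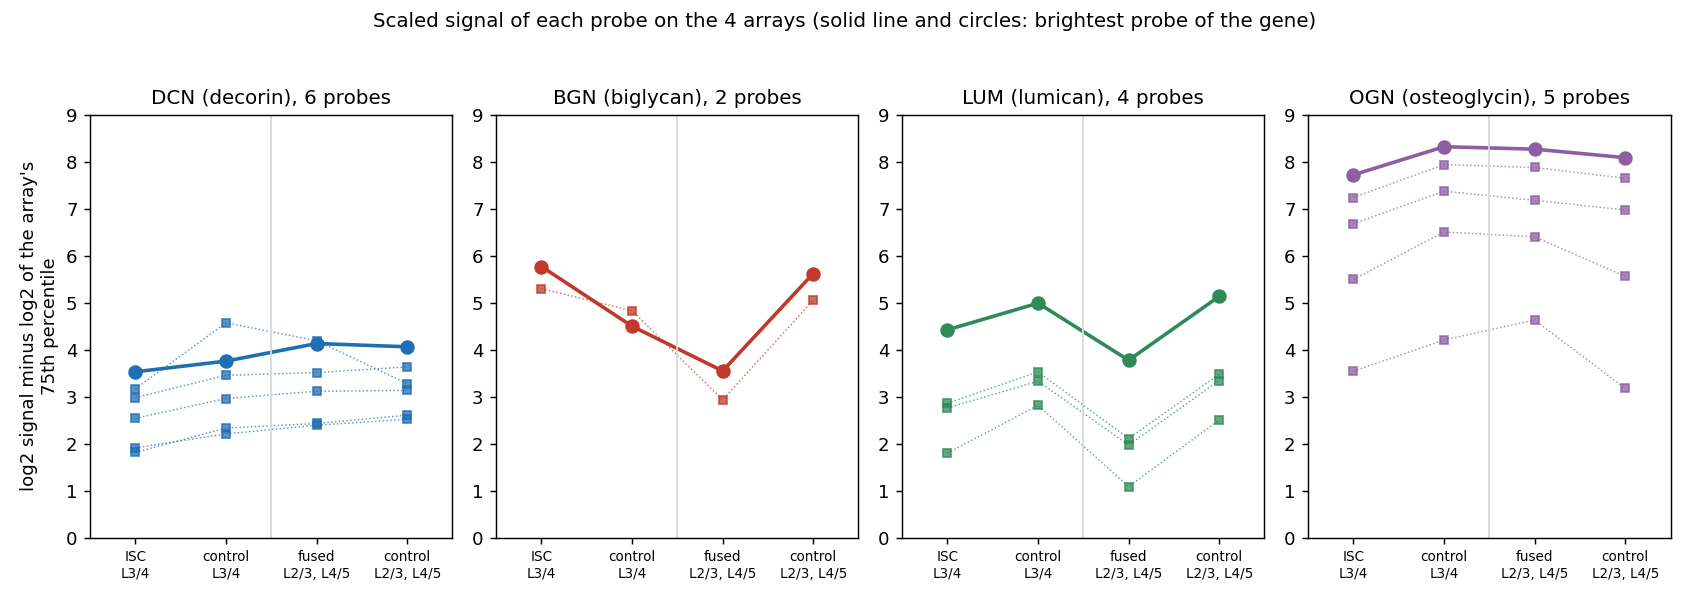
Scaled log2 signal (vertical axis, log2 signal minus log2 of the array's 75th percentile) of each probe of DCN, BGN, LUM and OGN on the 4 arrays, 1 array per group, with a solid line and circles for the brightest probe of a gene and dotted lines with squares for its other probes. Both BGN probes are lowest at the fused levels, where the brightest was at 3.55, and all 4 LUM probes are lowest there too.

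Biglycan differed most over the 4 arrays. BGN was at 5.77 at the ISC level, 4.50 in the L3/4 control, 3.55 at the fused levels and 5.62 in the L2/3-L4/5 control. The ISC level and the L2/3-L4/5 control were thus high and 0.15 apart, the L3/4 control lay 1.12 below that control, and the fused levels lay a further 0.95 lower. The other BGN probe was at 5.30, 4.83, 2.93 and 5.06 in the same order of arrays, with the same array highest and the same lowest. By that probe the L3/4 control was only 0.22 below the L2/3-L4/5 control, so the probes did not give the same distance between the controls. Against its own control BGN was higher at the ISC level by 1.27 on the log2 scale, which is 2.41-fold, by the brightest probe and by 0.47 by the other. The mean over both probes was 0.87 ± 0.57 (SD, n = 2 probes), under 2-fold. Against the L2/3-L4/5 control the ISC level was higher by 0.15 and 0.25 by these probes.

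Lumican was lowest at the fused levels. LUM was at 4.43 at the ISC level, 4.99 in the L3/4 control, 3.78 at the fused levels and 5.14 in the L2/3-L4/5 control. The controls were 0.14 apart, less than the spread of a ratio of single spots, the ISC level was below both and the fused levels were below all others. The 4 LUM probes gave the fused levels as lower than their control by −1.36 to −1.42, with an SD over probes of 0.03, and lower than the L3/4 control by −1.21 to −1.73. All 4 were thus past 2-fold below either control.

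Decorin and osteoglycin differed less by their brightest probes. DCN was at 3.53 at the ISC level, 3.76 in the L3/4 control, 4.13 at the fused levels and 4.06 in the L2/3-L4/5 control, a range of 0.60. OGN was at 7.72 at the ISC level, 8.32 in the L3/4 control, 8.27 at the fused levels and 8.09 in the L2/3-L4/5 control, also a range of 0.60. Both were lowest at the ISC level. For DCN the fused levels and their control were 0.07 apart, and for OGN the fused levels and the L3/4 control were 0.05 apart, both within the spread of a ratio of single spots.

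Setting ISC tissue against the L3/4 control addresses what concentrated mechanical stress does to the ligament, although muscle resection at the same segment cannot be told apart from it. By the brightest probes 1 of the 4 genes, BGN, passed 2-fold upwards and 0 passed it downwards. Of all 13728 features measured on the pair of arrays, 9.11% passed it upwards and 10.5% downwards. DCN was at −0.23, LUM at −0.57 and OGN at −0.60. All 6 DCN probes, all 4 LUM probes and all 5 OGN probes were below 0, from −0.23 to −1.40 for DCN, −0.57 to −1.02 for LUM and −0.60 to −1.01 for OGN. These genes are bright on the array, and bright features as a group were lower here: the median was −0.44 over the 719 features at least as bright as the dimmest of the 4 genes, against −0.16 over all features. Of these bright features 64.0% had a lower ratio than DCN, 40.5% a lower one than LUM and 37.0% a lower one than OGN. These 3 thus lay in the middle of this set. The set has only a lower bound of brightness, so it is not matched to the brightness of each gene. By its brightest probe BGN lay above 97.8% of the bright features, of which 3.06% were at least 2-fold higher. Its other probe, at 0.47, was under 2-fold. Scaling that depends on brightness took DCN to 0.024 with quantile normalization and 0.033 with cyclic loess, and OGN to −0.13 and 0.048, so the direction of these genes at the ISC level depends on the scaling. LUM stayed below 0, at −0.26 and −0.25, and BGN stayed above it, at 1.67 and 1.62.

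Against the L2/3-L4/5 control, these bright features at the ISC level were closer together, with a median of −0.08 and 1.25% of the 719 at least 2-fold apart. Here 0 of the 4 genes were 2-fold apart, beside 3.56% of 14113 features that passed 2-fold upwards and 5.02% downwards. There LUM was at −0.71 and DCN at −0.53, with 1.11% and 2.64% of the bright features lower. The 4 LUM probes lay between −0.58 and −0.71 and the 6 DCN probes between −0.11 and −0.79. OGN was at −0.37, with a probe at 0.37, and BGN at 0.15. That control held the high skeletal muscle signal given above, and its part in these ratios was not tested.

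**Figure D2:**
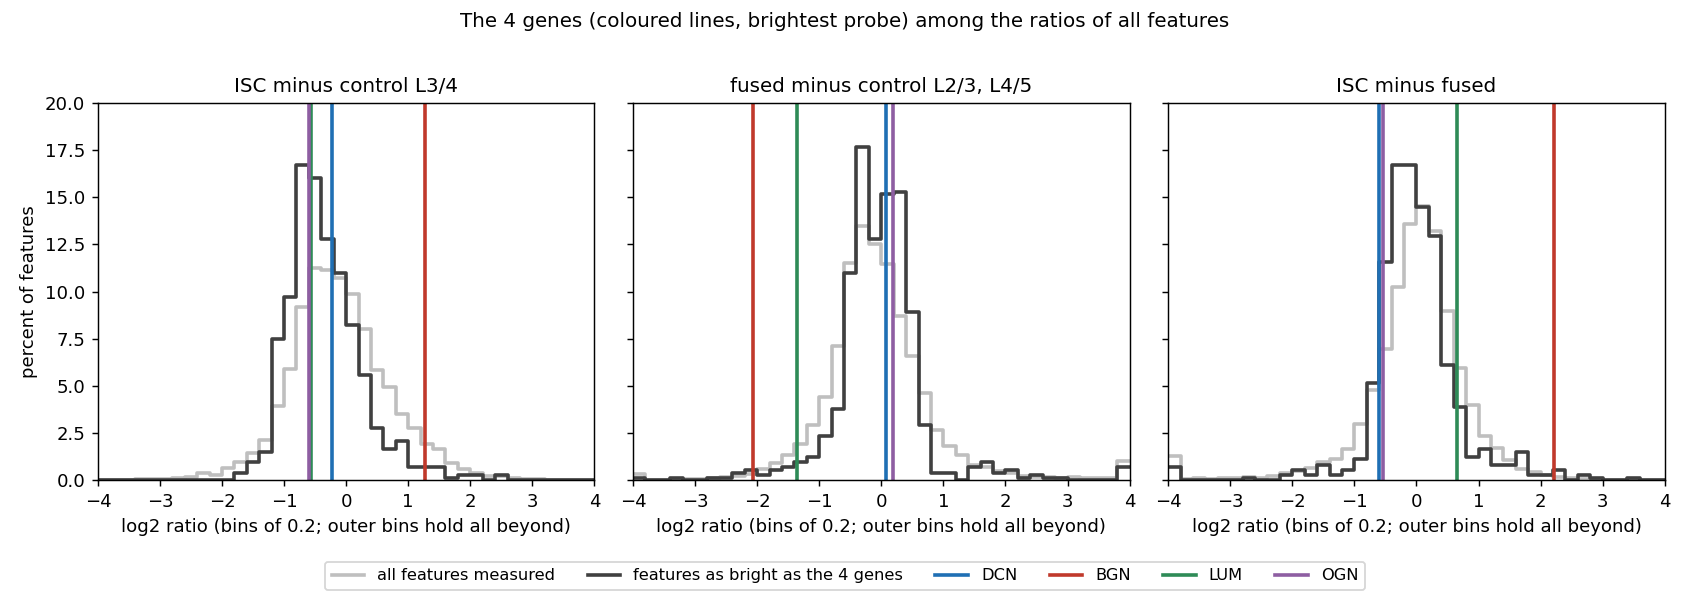
Percent of features (vertical axis) by log2 ratio (horizontal axis, bins of 0.2) at the ISC level against the L3/4 control, at the fused levels against the L2/3-L4/5 control, and at the ISC level against the fused levels, in grey for all features measured and in black for the 719 at least as bright as the dimmest of the 4 genes, with coloured lines at DCN, BGN, LUM and OGN. Each line is at the brightest probe of its gene. BGN lies to the right of 97.8% of the bright features at the ISC level and has 1.25% of them to its left at the fused levels, while DCN and OGN lie near the middle in both.

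Setting fused tissue against the L2/3-L4/5 control addresses the ligament of immobilised segments, where fusion and the surgery itself cannot be told apart. Here 2 of the 4 genes, BGN and LUM, were at least 2-fold lower and 0 were at least 2-fold higher, where 9.11% of 13715 features were at least 2-fold lower and 7.85% at least 2-fold higher. BGN was at −2.07, or 0.24 of the control, with its other probe at −2.12. LUM was at −1.36, or 0.39 of the control. Among the 719 bright features, of which 5.29% were at least 2-fold lower, only 1.25% had a lower ratio than BGN and 3.34% a lower one than LUM. DCN was at 0.07, with 5 of its probes between −0.18 and 0.07 and 1 at 0.91. OGN was at 0.18, with 3 probes between 0.18 and 0.23, 1 at 0.84 and 1 at 1.46. Neither DCN nor OGN was lower there by its brightest probe, under any of the 5 other scalings. The skeletal muscle sum was 15.0 at the fused levels and 873.4 in the L2/3-L4/5 control. All 12 measured markers were past 2-fold downwards in this comparison, around a median ratio of −5.46. In the L3/4 control the muscle sum was 28.2. Against it 4 of 10 measured markers at the fused levels were past 2-fold downwards and 0 upwards, around a median of −0.90. The part of muscle in either comparison was not tested. Against the L3/4 control LUM was at −1.21, BGN at −0.95 and −1.90 by its probes, DCN at 0.37 and OGN at −0.051. By brightest probes 1 of the 4, LUM, was past 2-fold downwards and 0 upwards, beside 13% and 11.2% of 13351 features. The granulocyte and erythroid signal was higher at the fused levels than in either control, and its part in the lower LUM and BGN was not tested.

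The operated arrays were also set against each other, which needs no control. The ISC level was higher than the fused levels in BGN by 2.22 on the log2 scale, or 4.66-fold, and by 2.37 by the other probe. LUM was higher at the ISC level by 0.65, with its probes from 0.65 to 0.79. DCN was lower at −0.60, with all 6 probes from −0.48 to −1.02, and OGN was lower at −0.55, with all 5 probes from −0.50 to −1.09. So 1 of 4 genes was at least 2-fold higher by its brightest probe and 0 at least 2-fold lower, beside 6.98% and 7.75% of 14562 features. Of the bright features 98.9% were below BGN, 90.1% below LUM, 12.5% below OGN and 9.74% below DCN. Under 5 other scalings BGN lay between 2.18 and 2.46, LUM between 0.61 and 0.77, DCN between −0.48 and −0.64 and OGN between −0.47 and −0.66, so none of these signs turned. The segment also differs between these arrays, and level and treatment cannot be told apart.

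**Figure D3:**
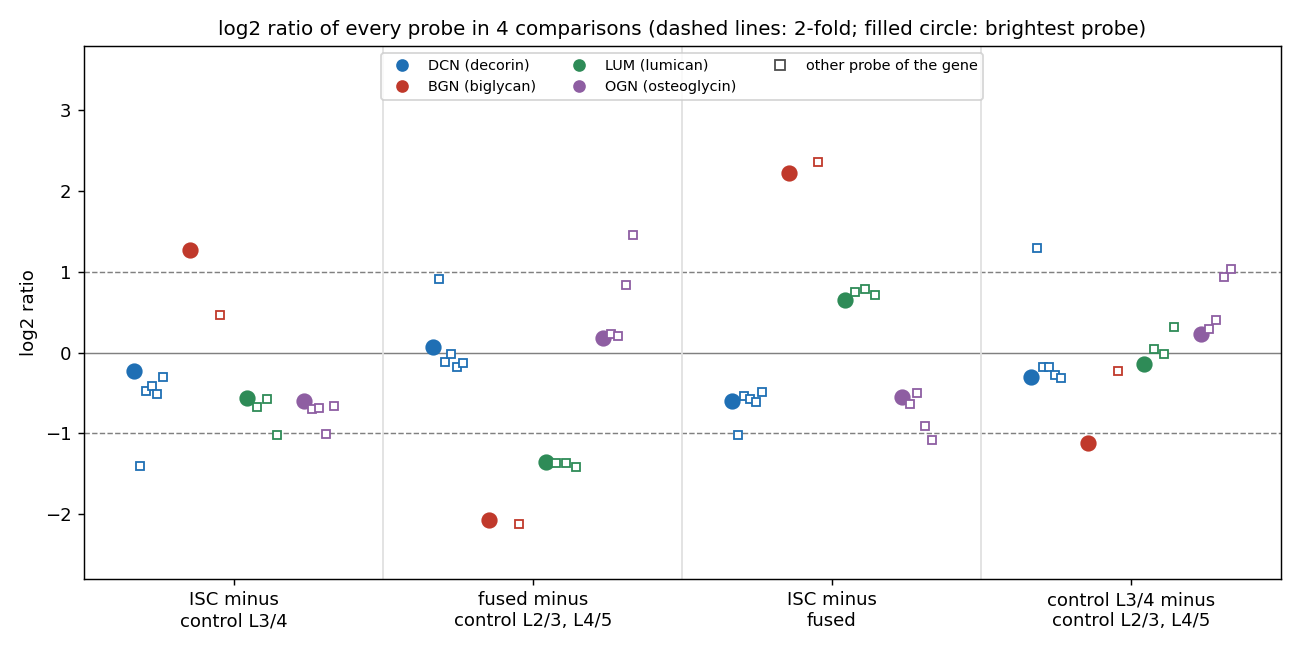
The log2 ratio (vertical axis) of every probe of DCN, BGN, LUM and OGN in 4 comparisons of 2 arrays each, with a filled circle for the brightest probe of a gene, open squares for its other probes and dashed lines at 2-fold. The LUM probes cluster at −1.36 to −1.42 at the fused levels, while 1 DCN probe and 2 OGN probes lie apart from the rest of their gene there.

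The controls were compared with each other as background. BGN was lower in the L3/4 control than in the L2/3-L4/5 control, at −1.12 by its brightest probe and −0.22 by the other. This makes 1 of the 4 genes past 2-fold downwards and 0 upwards, beside 9.15% and 8.43% of 13137 features, and 2.23% of the bright ones downwards. By the brightest probe the difference between the controls was thus close in size to that of 1.27 at the ISC level, and both values use the L3/4 control. DCN was at −0.31, LUM at −0.14 and OGN at 0.23. LUM moved to −0.41 with quantile normalization and −0.44 with cyclic loess, and OGN turned to −0.24, −0.29 and, with normexp, −0.048.

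Ratios of the 4 genes to each other compare their changes on the same arrays and do not depend on any factor per array. They can still depend on scaling that varies with brightness. At the ISC level against the L3/4 control, BGN changed relative to LUM by 1.84 on the log2 scale, with all 8 pairs of probes between 1.04 and 2.29. BGN changed relative to OGN by 1.87, with all 10 pairs between 1.07 and 2.28, and DCN relative to BGN was below 0 in all 12 pairs. At the fused levels against their control, DCN changed relative to LUM by 1.43, with all 24 pairs between 1.18 and 2.33, and DCN relative to BGN by 2.14, with all 12 pairs between 1.90 and 3.03. LUM relative to OGN was at −1.54 with all 20 pairs below 0. DCN relative to OGN was at 0.37 at the ISC level, with 25 of 30 pairs above 0 and 5 below. It was at −0.11 at the fused levels, with 4 pairs above 0 and 26 below. The pairs of the lesser sign all held the same DCN probe, A_04_P000516. For the other DCN probes all pairs with OGN were above 0 at the ISC level and below 0 at the fused levels. With cyclic loess, DCN was at 0.033 and OGN at 0.048 at the ISC level, so the order of their brightest probes turned there. Over the 4 arrays, with each gene centred on its own mean, the root mean square difference was 0.20 between DCN and OGN, 0.58 between LUM and OGN, 0.63 between DCN and LUM, 0.71 between BGN and LUM, 1.05 between DCN and BGN and 1.09 between BGN and OGN. LUM and DCN, though neighbours in the genome, were thus further apart than DCN and OGN.

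Probes of 1 gene did not always give the same ratio. The DCN probe A_04_P000516 was at 3.17 at the ISC level, 4.57 in the L3/4 control, 4.19 at the fused levels and 3.28 in the L2/3-L4/5 control. It was the highest of the DCN probes against the L2/3-L4/5 control for the fused levels, at 0.91, and the lowest at the ISC level against the L3/4 control, at −1.40. The other 5 DCN probes ranged from −0.23 to −0.52 at the ISC level. Over the 196 named genes with at least 4 probes measured on all arrays, the median range of the ratio over a gene's probes was 0.45 at the ISC level and 0.35 at the fused levels. DCN had ranges of 1.18 and 1.09, wider than in 88.3% and 93.4% of these genes. OGN had 0.41 and 1.27, with 94.9% of genes narrower than the second value, and LUM 0.45 and 0.06, with only 2.55% of genes narrower than the second value. Which stretch of the transcript a probe covers was not used here.

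By likeness of profile over the 4 arrays among 885 other named genes, the nearest to BGN were RGS4, STXBP4 and UGGT2, with root mean square differences of 0.27, 0.28 and 0.28. The nearest to LUM were MALRD1 at 0.07, TMEM109 at 0.10 and SHMT2, a mitochondrial serine hydroxymethyltransferase, at 0.12. The nearest to DCN were RPL4, a ribosomal protein, at 0.05, RYR2 at 0.07 and FHIP1B at 0.09, and the nearest to OGN were LOC100008854 at 0.03, SERPINB9 at 0.05 and NF2 at 0.06. No gene was as near to BGN as the nearest were to the other 3. For DCN, 42 of the 885 genes were nearer than OGN.

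Other genes of proteoglycan assembly and of the partners of these proteins were taken from lists, of which few members could be named. Their counts past 2-fold stand beside 9.11% of all features upwards and 10.5% downwards in ISC tissue, and 7.85% upwards and 9.11% downwards in fused tissue, each against its own control. Of 17 small leucine-rich proteoglycans listed, those described here were the 4 named, and of 33 genes of elastic fibres and fibre assembly 0 were named. Of 41 genes of glycosaminoglycan synthesis and sulphation 4 were named. At the ISC level against the L3/4 control, 1 of 3 measured passed 2-fold upwards and 0 downwards: PAPSS2, which makes the sulphate donor, at 2.06, beside UGDH, which makes UDP-glucuronate for the chains, at 0.99 and CHPF, a chondroitin-polymerizing factor, at −0.91. In fused tissue 0 of 4 were 2-fold apart, with PAPSS1 at −0.98, UGDH at −0.78, CHPF at −0.31 and PAPSS2 at 0.72. Set against the L3/4 control instead, fused tissue was at 0.26 for UGDH, −0.82 for CHPF and 2.18 for PAPSS2. PAPSS1 was not well above background in that control. PAPSS2 and UGDH were lower in the L3/4 control than in the other control, at −1.46 and −1.04, as BGN was, and against that control ISC tissue was at 0.59 and −0.044. Among other proteoglycans 2 of 26 were named. SRGN, the proteoglycan of secretory granules of blood cells, was at −0.87 at the ISC level and 4.87 at the fused levels, and GPC6, a glypican, was at 0.33 at the fused levels and not well above background in the L3/4 control.

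Of 17 collagen genes 3 were named. In ISC tissue 1 of 3 passed 2-fold upwards and 0 downwards, and in fused tissue 0 upwards and 1 downwards. COL8A1, which encodes a chain of collagen VIII, was at 1.30 at the ISC level and −1.68 at the fused levels. COL1A2 had the same directions, at 0.89 and −0.62, and COL2A1, the collagen II gene of cartilage, was at −0.08 and −0.73. With the L3/4 control in place of their own, the fused values were −1.58 for COL8A1, −0.10 for COL1A2 and −0.60 for COL2A1. For ISC against fused tissue COL8A1 was at 2.87, COL1A2 at 0.99 and COL2A1 at 0.52. Of 35 ligands and receptors 14 were named, and in ISC tissue 3 of 11 measured passed 2-fold upwards and 3 downwards, around a median of 0.21. TLR2 was at 1.60 and HGF at 1.56, and IGF1 was at −2.43 and KDR, an endothelial receptor, at −1.32. In fused tissue 3 of 10 passed it upwards and 0 downwards, around a median of 0.52. HGF was at 3.40 and LY96, a partner of TLR4, at 1.26, while TGFB2 was at −0.95 and MSTN, myostatin, at −0.92. With the L3/4 control these fused values were 1.94 for HGF, −0.47 for LY96, 0.09 for TGFB2 and −0.44 for MSTN. The signs of LY96 and TGFB2 thus turned with the control used. Against the L2/3-L4/5 control the ratio of the ISC level was 0.36 for TLR2 and 3.01 for HGF. IGF1 and KDR were not well above background in that control, so their lower values at the ISC level rest on the L3/4 control alone. Of 27 proteases of these proteins and their inhibitors 11 were named. In ISC tissue 3 of 7 measured passed 2-fold upwards and 0 downwards. These 3 were MMP13 at 2.25, CTSK at 1.27 and TIMP1, an inhibitor, at 1.05, and the lowest were MMP1 at −0.46 and MMP3 at −0.44. Against the L2/3-L4/5 control MMP13 was at 0.45, CTSK at 0.37 and TIMP1 at 0.04. The L3/4 control was itself below that control, at −1.80 for MMP13, −0.90 for CTSK and −1.01 for TIMP1. In fused tissue 1 of 7 passed 2-fold upwards and 1 downwards, with TIMP4 at 3.15, MMP13 at 0.55, MMP2 at −0.70 and TIMP1 at −1.26. With the L3/4 control the fused values were 2.36 for MMP13, −0.64 for MMP2 and −0.25 for TIMP1. TIMP4 was not well above background in that control. The medians over all features were −0.16 at the ISC level and −0.13 at the fused levels.

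**Figure D4:**
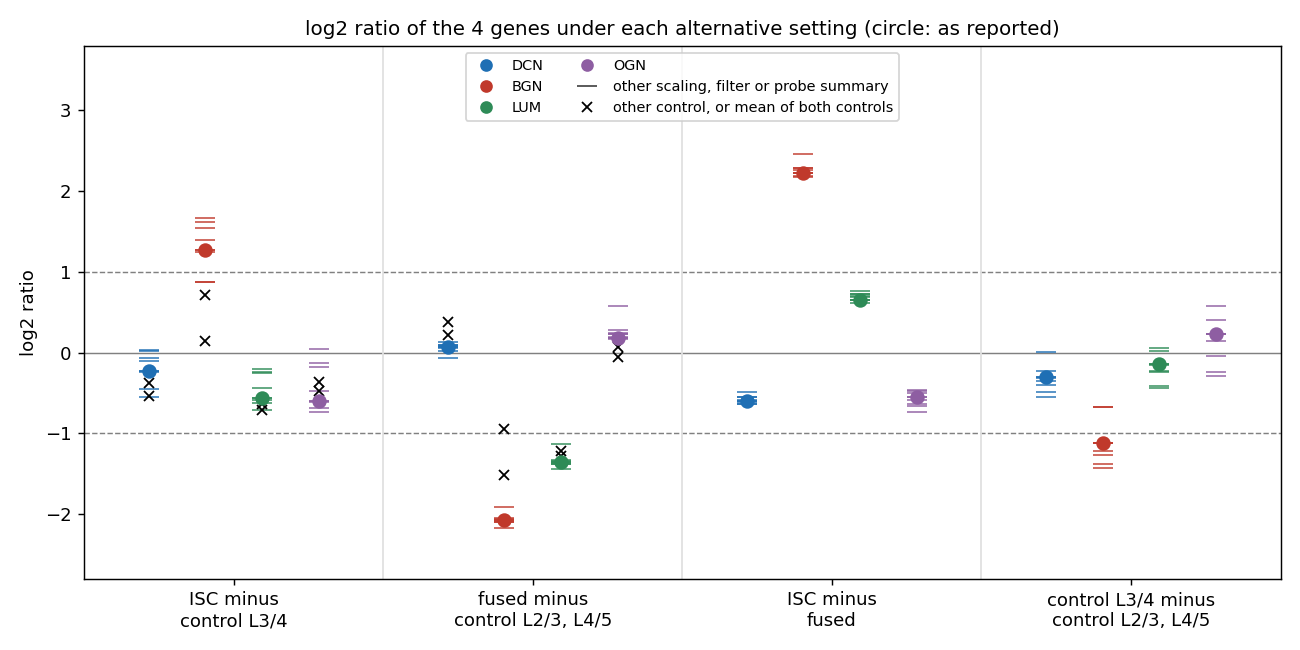
The log2 ratio (vertical axis) of DCN, BGN, LUM and OGN in 4 comparisons as reported (circles), under other scalings, filters and probe summaries (bars), and with the other control array or the mean of both controls (crosses). The value of BGN at the ISC level spreads from 0.15 with the other control to 1.67 with quantile normalization. The ISC against fused values use no control array, so they have no crosses and their spread cannot be compared with it.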

How the data were processed

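Cy3-labelled cDNA from total RNA was hybridised to 1 Agilent array per group, per the labels, and Agilent Feature Extraction 12.0.3 is named in the submitters' processing notes. As deposited, the files hold linear spot intensities, background-subtracted and spatially detrended within an array, per the file headers, and not scaled between arrays. Marks per spot (other values: above background or not, saturated, outlier) also come per the file headers. The authors' deposited value table equals the processed signal times 1 factor per array. How the factor was set stays unknown, and the column medians are 515.5 (ISC), 442.3 (L3/4 control), 498.4 (fused) and 504.0 (L2/3-L4/5 control).

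Here log2 of the processed signal minus log2 of the array's 75th percentile without control spots was used (93.8, 53.4, 85.4 and 72.8 in the same order). Control spots and 3 to 7 outlier spots per array were dropped, none of them of the 4 genes. Between 59.6% and 67.9% of probes were well above background. RefSeq accessions named 3792 probes (8.70%). The other probes, 24690 of them with Ensembl identifiers, are unnamed here and may hold more probes of these genes. A feature is a named gene or an unnamed accession (22904 in all), read through its brightest probe and measured when well above background on both arrays. Past 2-fold is a fixed size, not a test.

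The members and gene lists were chosen with earlier results of these data known. From each list the 2 highest and 2 lowest measured genes per control comparison were named, and for each member the 3 nearest profiles. Alternatives were quantile normalization and cyclic loess (limma 3.58.1, R 4.3.3), median centring, the authors' values, normexp (offset 50, planned on mean spot signals and run on median ones), other filters, probe summaries and controls, and folds of 1.5 and 3. The features at least as bright as the dimmest of the 4 genes, the median over probes and single probes were added after seeing the data.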

Additional observations from a re-analysis of the deposited data

Results flagged for a closer look

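BGN, OGN and DCN had opposite signs at the operated levels against their controls, each with 1 array per group, and the difference was not tested. BGN was at 1.27 at the ISC level and −2.07 at the fused levels, a difference of 3.34 on the log2 scale. This difference holds both the 2.22 between the operated arrays and the 1.12 between the controls. With the other control BGN was at 0.15 and −0.95, and by its other probe at 0.47 and −2.12. OGN was at −0.60 and 0.18, a difference of −0.78, where the ISC sign turned with cyclic loess and the fused value was −0.051 with the other control. DCN was at −0.23 and 0.07, a difference of −0.30, where the ISC sign turned with quantile normalization and cyclic loess and the fused value was −0.069 as the median over probes, 4 of 6 of which were below 0.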

How the results depend on the processing

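At the ISC level, LUM moved to −0.26 with quantile normalization, −0.25 with cyclic loess and −0.20 with normexp, and OGN to −0.13, 0.048 and −0.18 in the same order. With the other control array BGN was at 0.15 and OGN at −0.37. Read through single probes, DCN was at −1.40, BGN at 0.47, LUM at −1.02 and OGN at −1.01 at the ISC level, and DCN at 0.91 and OGN at 0.84 and 1.46 at the fused levels. No member was at least 2-fold higher (0 of 4) with the mean or median over probes, the other control, the mean of the controls or 3-fold, and 1 was lower at 1.5-fold. The call at 1.5-fold was OGN, at −0.60, where the median of the bright features was −0.44. At the fused levels, BGN was at −1.91 with normexp, −0.95 with the other control and −1.51 with the mean of the controls, LUM was at −1.14 with normexp, and 1 member was lower with the other control and at 3-fold. The share of all features past 1.5-fold or 3-fold was not taken, so the counts at these sizes have no background. Features at least 2-fold higher and lower at the ISC level numbered 1250 and 1437 of 13728, and 347 and 176 with normexp. They numbered 502 and 708 of 14113 with the other control, and 532 and 561 with the mean of the controls. With no filter they were 3026 and 2872, and among the 719 bright features 22 and 75. At the fused levels they numbered 1076 and 1250 of 13715, and 443 and 261 with normexp. With no filter they were 2492 and 2676 there, and among the 719 bright features 32 and 38. The number of features counted changes with the control, the filter and the bound of brightness, so these counts are not shares. The cause of any shift beyond that, as with normexp, was not tested. The share of calls that were higher at the ISC level was 46.5%, 58.9% with the authors' values, whose scale shifts every feature by 0.12, and 66.3% with normexp. At the fused levels it was 46.3%, and 62.9% with normexp. A further 152 values moved by less than their technical spread (the larger of the SD over a gene's probes and that of single-spot ratios), or by under 1.5 times for counts. They include filter settings that could not move the 4 genes, whose spots were all well above background. They also include BGN at 0.71 at the ISC level with the mean of the controls, where its spread over probes was 0.57. No paired analysis was possible because each group has 1 array.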

Other observations

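For the DCN and OGN probes that lay apart from the rest of their gene, a contrast over the 4 arrays was computed. The mean of the fused levels and the L3/4 control minus the mean of the ISC level and the L2/3-L4/5 control, a contrast chosen after the data were seen, was 1.16 for the DCN probe A_04_P000516, against 0.09 to 0.20 for the other 5 DCN probes. It was 0.92 and 1.06 for the OGN probes A_04_P002226 and A_04_P002227, against 0.39 to 0.47 for the other 3. The contrast is built from the same ratios to the controls by which these probes were seen to lie apart. Their high values were thus largely set by that choice and are no separate evidence of a shared direction. The 4 LUM probes were at −0.20 to −0.40 and the BGN probes at −1.67 and −1.29. The DCN ratio between the controls was −0.31 for the brightest DCN probe and 1.29 for A_04_P000516.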
